A study of Homo sapiens and Mus musculus with 24 samples.

Results

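Receptors for glutamate and GABA, the main excitatory and inhibitory transmitters of the brain, are built from subunits encoded by a small set of related genes. The mRNAs of these subunits were followed here in mouse cells by UPA-seq. The members are the protein-coding mouse genes whose symbols begin with Gria, Grik, Grin1, Grin2, Grin3, Gabra, Gabrb or Gabrg, or with Grm or Gabbr and a digit. They numbered 38 of the 53715 genes in the mouse count tables (21890 of them protein-coding): 4 AMPA, 5 kainate and 7 NMDA receptor subunits, 8 metabotropic glutamate receptors, 12 GABA-A subunits of the alpha, beta and gamma classes and 2 GABA-B subunits.

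UPA-seq sequences the RNA that stays in the aqueous phase of a phenol-chloroform extraction after UV crosslinking of cells, and RNA bound covalently to protein is carried into the interphase instead. The paper proposes that bonds formed by UV also hinder reverse transcription. Loss of reads by either route cannot be told apart in the counts used here. The study irradiated HepG2, HEK293, Neuro2a and primary hippocampal cultures and sequenced each with nonirradiated controls, in 3 replicates per group, 24 samples in all. The 12 mouse samples are used here. Neuro2a is a mouse neuroblastoma line, described in the labels by its name alone, and HippCulture stands for hippocampal neurons from C57/BL6NCr embryos at embryonic stage E16.5, kept in culture after AraC had been added against glia. The labels name UV irradiation as the only difference between the groups of a cell type, and the number of embryos behind a HippCulture replicate is not given in the sources used here. The paper's figure legends speak of biological triplicates, and how these were obtained is not stated. The p-values therefore measure the spread between samples, which may be technical in part.

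AMPA and kainate receptors are glutamate-gated cation channels that carry fast excitation, and NMDA receptors are voltage-dependent, calcium-permeable channels that combine the obligatory subunit Grin1 with Grin2 or Grin3 subunits. Metabotropic glutamate receptors and GABA-B receptors act through G proteins, whereas GABA-A receptors are chloride channels that commonly join alpha, beta and gamma subunits. Many neuronal mRNAs, several of these included, carry long 3′ UTRs.

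Short stretches of the 3′ UTRs are shown first, since the changes upon irradiation are set against 3′ UTR length further on. The 4 windows that follow come from members with large decreases in HippCulture and hold the motif TGTANATA, the letters recognised by Pumilio proteins. Grm5, also among the 6 members with the largest decrease, has no match. Each window has 28 bases of the mm10 build on the strand of the gene, read 5′ to 3′, with the motif in capitals. The genes were picked after their values had been seen.
Grin2b, at chr6:135731550-135731577, minus strand: aggaagtcgtTGTATATAtataagccaa
Gabrg3, at chr7:56718357-56718384, minus strand: aagcagaaaaTGTACATAaccttgatga
Gabrb1, at chr5:72139556-72139583, plus strand: ccaaaaatgaTGTAAATAaaacataaaa
Gria2, at chr3:80686580-80686607, minus strand: cttgaactaaTGTAAATAattggaataa

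Grin2b has 6 such matches in its longest annotated 3′ UTR of 18865 bases, Gabrb1 5 in 12228 bases, Gria2 2 in 7268 bases and Gabrg3 1 in 7948 bases. Over windows of 1000 bases of 3′ UTR on the sense strand, 23 of 108 windows of the members held the motif (21.3%), against 3857 of 21741 windows of all protein-coding genes (17.7%). A match is a run of letters and not a known site of binding, and the share in the members lay close to that of all genes.

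The libraries of Neuro2a held 7449341 to 9002243 counts on genes and those of HippCulture 6910907 to 9163323. The 10 genes with the most counts took 22.5% to 24.8% of the nonirradiated and 47.9% to 49.0% of the irradiated Neuro2a libraries, and 21.5% to 32.4% against 40.3% to 52.4% in HippCulture. Changes upon UV irradiation are therefore given relative to the bulk of the genes, by TMM normalization. The median over all genes was −0.14 in Neuro2a and −0.04 in HippCulture on the log2 scale, and −1.33 and −0.59 when only library totals were used. Among cell type markers, all 8 neuronal markers (Map2, Rbfox3 and others) were present in HippCulture at a sum of 3687 to 4109 CPM (here counts scaled by the library total). The 7 astrocyte markers were also all present there, at 1123 to 1288 CPM with Slc1a2 at 550 CPM, despite the AraC treatment. The sum of neuronal markers was 1881 to 2472 CPM and that of astrocyte markers 737 to 924 CPM in the irradiated cultures. On this scale of library totals the median of all genes fell as well (−0.59), so the lower sums are not read as a change in cell numbers. In the nonirradiated cultures glutamatergic markers summed to 399 to 446 CPM, GABAergic markers to 227 to 249 CPM and oligodendrocyte lineage markers to 113 to 137 CPM. Cycling cell markers summed there to 76.6 to 101 CPM. Fibroblast and endothelial markers summed to 41.5 to 47.8 CPM, of which Dcn held a mean of 34.8 CPM. Microglial markers summed to 7.08 to 7.87 CPM, with 2 of 6 at 0.5 CPM or more and Csf1r alone at a mean of 6.08 CPM. Nonirradiated Neuro2a had 8.92 to 10.2 CPM of the same microglial markers, so this sum does not show that microglia were present. Neuro2a carried sympathoadrenal markers at 218 to 226 CPM, with Hand2 leading, against at most 4.04 CPM in nonirradiated HippCulture. The part that glia play in the levels given here was not tested, and in bulk samples fewer cells of a type and less RNA per cell cannot be told apart.

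Without irradiation, HippCulture held nearly the whole set of receptor mRNAs, whereas 15 of the 38 members reached 0.5 CPM in Neuro2a. The members together took 4465 to 5060 CPM of the library total in HippCulture and 268 to 283 CPM in Neuro2a. Of the 36 members tested, 34 were higher in HippCulture, 1 was lower and 1 (Grin3b) was not called (34 and 1 members without overlap of the samples, against 42.2% and 39.9% of all genes), by the quasi-likelihood test of edgeR at a Benjamini-Hochberg adjusted p under 0.05. Among all 20940 genes tested, 41.4% were higher and 39.0% lower in HippCulture. Since 21 of the 36 members passed the filter on low counts only through HippCulture, the count over the 36 is a description and not support for a difference of the set. Of the 15 members that passed in both cell types, 13 were higher in HippCulture and 1 was lower, with a median log2 difference of 4.25, against 38.7% and 37.9% of the 14973 genes that passed in both, with a median of 0.0. Gabra6 (no count in nonirradiated samples of either cell type) and Grm6 (5 counts in Neuro2a, 0 in HippCulture) were not tested.

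Levels between genes are compared as RPKM, here TMM-normalized CPM per kilobase of all exons of the gene. Gabbr1, the ligand-binding subunit of the GABA-B receptor, was the most abundant member in HippCulture at 62.5, 67.5 and 66.1 RPKM, against 4.31, 5.36 and 5.18 RPKM in Neuro2a. The AMPA receptor subunit Gria1 followed at 57.4, 52.7 and 55.0 RPKM, with 0.0559, 0.122 and 0.128 RPKM in Neuro2a. Gabra5, the alpha subunit of GABA-A receptors best known from the hippocampus, stood at 46.8, 44.6 and 49.7 RPKM. Gabbr1 and Gria1 did not overlap with the members ranked below them. Gria2, which makes AMPA receptors impermeable to calcium once its mRNA is edited, had 41.7, 37.6 and 40.9 RPKM in HippCulture and 2.95, 3.46 and 2.68 RPKM in Neuro2a. Grm5, a group I metabotropic receptor, had 38.7, 36.4 and 40.0 RPKM, with 3 counts in all of nonirradiated Neuro2a. From Gria2 down to Grin2b (31.6, 25.7 and 31.3 RPKM), through Grm5, Gabbr2 and Gabra2, the ranges of neighbours overlapped. The exon union used as length includes long 3′ UTRs, so that RPKM is lower for genes such as Grin2b than it would be for their coding length.

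**Figure D1:**
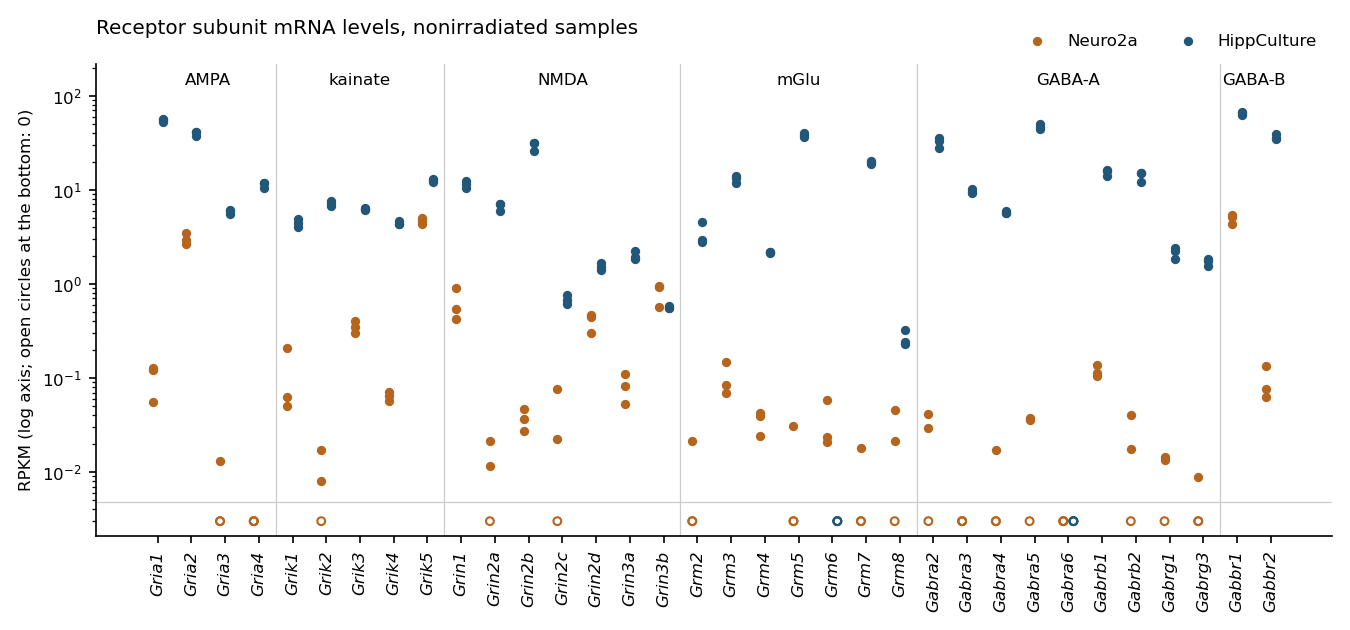
RPKM of 34 of the 38 receptor subunit mRNAs (log axis) in each of the 3 nonirradiated Neuro2a (brown) and 3 nonirradiated HippCulture (blue) samples, by receptor family, with samples at 0 drawn as open circles below the line. HippCulture samples lie above all Neuro2a samples for 31 of the members drawn, and those of Grin3b lie at or near the lowest Neuro2a sample.

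Within families, Neuro2a was dominated by a few subunits. Gria2 made up 96.6% ± 1.57 (SD, n = 3) of its AMPA subunit RPKM and Grik5 89.7% ± 0.0588 of that of the kainate subunits. In HippCulture, Grm5 took 46.0% ± 0.366 of the metabotropic receptor RPKM, Grm7 23.5% ± 0.428 and Grm3 15.6% ± 0.772. There the AMPA subunits divided into 49.0% ± 0.633 Gria1, 35.6% ± 0.319 Gria2, 10.1% ± 0.266 Gria4 and 5.23% ± 0.111 Gria3. No test was made on these shares.

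Many members had few reads in Neuro2a. Over its 3 nonirradiated samples 3 members had no count, 12 had 1 to 3 counts, 8 had 4 to 10 and 15 had more than 10. Gria4, an AMPA subunit, was at 0 in Neuro2a and at 11.7, 10.6 and 11.9 RPKM in HippCulture, at least 628-fold higher against a floor of 3 counts over the group. Gabra3, also at 0, had 10.1, 9.27 and 9.61 RPKM in HippCulture and was at least 331-fold higher. Grm5 was higher by a ratio of 3433 (95% exact counting interval 1174 to 16649). For Grm7, a presynaptic receptor with 20.2, 18.7 and 20 RPKM in HippCulture and 1 count in Neuro2a, the ratio was 3030 (543 to 119712). For Gabra5, with 2 counts in Neuro2a, it was 1830 (506 to 15117). These intervals cover counting error only. At the other end, Grik5, a kainate subunit of high affinity for its ligand, was at 12.7, 12.2 and 13.2 RPKM in HippCulture and 4.62, 4.29 and 5.0 RPKM in Neuro2a, 2.75-fold apart (adjusted p = 6.1e-11). Grin3b was at 0.956, 0.574 and 0.936 RPKM in Neuro2a and 0.560, 0.558 and 0.580 RPKM in HippCulture, a log2 difference of −0.52 ± 0.30 with an adjusted p of 0.11. It shares 32.1% of its exon bases with Tmem259 on the opposite strand, which had 705, 511 and 497 counts in Neuro2a and 462, 544 and 477 in HippCulture. Reads in the shared bases cannot be told apart, so the level of Grin3b itself is uncertain.

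Upon UV irradiation of HippCulture, most of the receptor mRNAs that changed were reduced in UPA-seq reads. Of the 36 members tested, 20 fell, 5 were higher and 11 were not called, with a median log2 fold change of −0.41. Over all 18488 genes tested, 52.0% were called, 25.9% fell and 26.1% were higher (24.9% and 30.9% of the protein-coding genes). The decreases spread over all 6 families, with 3 of 4 AMPA subunits, 2 of 5 kainate subunits, 2 of 7 NMDA subunits, 3 of 7 tested metabotropic receptors, 8 of 11 tested GABA-A subunits and both GABA-B subunits. The 5 higher members were kainate and NMDA subunits, relative to the bulk of the genes, and none of them was called higher when library totals alone set the scale. All irradiated samples lay below all nonirradiated ones for 22 members and above them for 5, where 30.8% and 29.3% of all genes tested did so. The latter 5 include Grin2c, which was not called, and leave out Grin1, which was called higher with overlapping groups. Levels in the paragraphs on UV irradiation are TMM-normalized CPM, which do not take gene length into account.

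**Figure D2:**
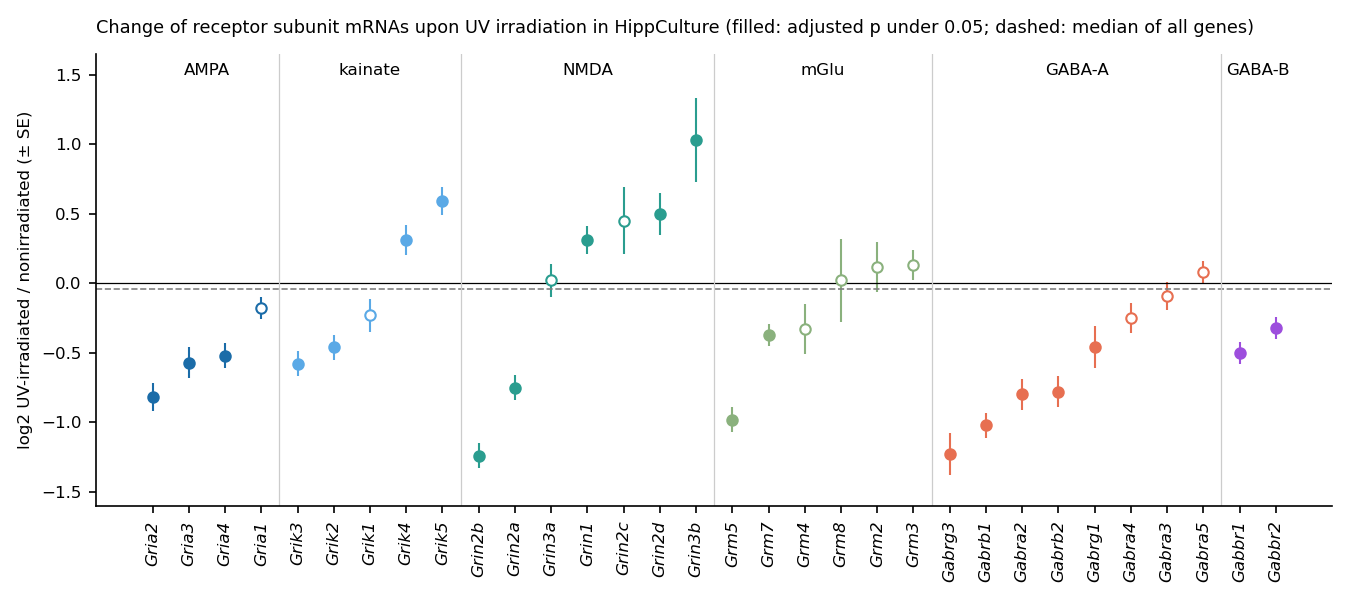
Log2 fold change upon UV irradiation (± SE, 3 irradiated against 3 nonirradiated HippCulture samples) of 32 of the 36 receptor subunit mRNAs tested, by family and size. Filled points passed the test, and the dashed line is the median of all genes at −0.04. GABA-A and AMPA subunits lie mostly below 0, and NMDA subunits run from −1.24 (Grin2b) to 1.03 (Grin3b), the higher ones relative to the bulk of genes only, since none passes with library totals.

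Among AMPA receptor subunits, Gria2 (ENSMUSG00000033981.14, chromosome 3, 80681450 to 80802835) had 511, 460 and 497 CPM in nonirradiated and 307, 227 and 298 CPM in irradiated cultures. All irradiated samples were below all controls, a 1.76-fold decrease (log2 −0.82 ± 0.10, adjusted p = 1e-06). Gria3 and Gria4, which pair with other AMPA subunits, fell by 0.57 and 0.52 on the log2 scale. Gria1 (ENSMUSG00000020524.16, chromosome 11, 57011387 to 57330244) went from 273, 251 and 260 CPM to 239, 235 and 217 CPM. Its groups did not overlap, but the log2 change of −0.18 ± 0.08 missed the threshold (adjusted p = 0.059), and it passed with DESeq2 (−0.20, adjusted p = 0.041) and without irradiated replicate 1 (−0.21, adjusted p = 0.036).

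The unequal changes altered the makeup of the family as it was read in the libraries. Within a library, shares of the AMPA subunit RPKM do not depend on the scaling between libraries. Gria1 took 49.1%, 49.5% and 48.3% in nonirradiated cultures and 57.0%, 62.7% and 55.7% after irradiation. Gria2 took 35.7%, 35.3% and 35.9% before and 28.5%, 23.6% and 29.7% after. The groups did not overlap for either subunit. With 3 samples against 3 an exact permutation test cannot give a p below 0.1, so the shares are given with no call.

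Kainate receptor subunits divided by direction. Grik3 (ENSMUSG00000001985.9, chromosome 4, 125490700 to 125714173) had 44.7, 43.7 and 45.2 CPM in nonirradiated and 29.5, 30.5 and 29.6 CPM in irradiated cultures, a log2 change of −0.58 ± 0.09 (adjusted p = 2.4e-05). Grik2 fell by 0.46 on the log2 scale, and Grik1, at −0.23 ± 0.12, was not called. Grik4 and Grik5, which form channels only together with Grik1, Grik2 or Grik3, had positive changes relative to the bulk of genes, of which that of Grik4 turned negative with library totals. Grik5 (ENSMUSG00000003378.9, chromosome 7, 25009849 to 25072346) had 51.9, 49.6 and 53.5 CPM in controls and 74.6, 90.8 and 69.2 CPM after irradiation, a log2 change of 0.59 ± 0.10 (adjusted p = 3.5e-05) that was 0.03 (adjusted p = 0.89) with library totals alone. Grik4 (ENSMUSG00000032017.14, chromosome 9, 42518135 to 42944493) had 20.2, 20.4 and 21.9 CPM against 28.6, 22.6 and 25.7 CPM, a log2 change of 0.31 ± 0.11 (adjusted p = 0.027), which turned to −0.24 with library totals. The call of Grik4 was lost without nonirradiated replicate 1 (0.31, adjusted p = 0.065) and without irradiated replicate 1 (0.23, adjusted p = 0.13) or 3 (0.31, adjusted p = 0.073). Grik5 thus made up 36.0%, 36.4% and 36.4% of the kainate subunit RPKM in nonirradiated cultures and 48.6%, 55.7% and 47.5% in irradiated ones.

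NMDA receptor subunits held some of the largest changes in either direction, relative to the bulk of genes, and none of the higher ones was called with library totals. Grin2b (ENSMUSG00000030209.14, chromosome 6, 135713233 to 136173511), the Grin2 subunit that prevails in young forebrain neurons, had 618, 503 and 608 CPM in nonirradiated and 258, 243 and 233 CPM in irradiated cultures. Every irradiated sample was below every control, a 2.36-fold decrease (log2 −1.24 ± 0.09, adjusted p = 1.2e-09). Grin2a, the subunit that gains in weight with maturation, fell by 0.75 on the log2 scale (SE 0.09, adjusted p = 7.9e-07). Grin1 (ENSMUSG00000026959.13, chromosome 2, 25291181 to 25319187) was at 88.1, 80.4 and 95.0 CPM in controls and at 108, 126 and 93.8 CPM after irradiation. These groups overlapped, and the log2 change of 0.31 ± 0.10 (adjusted p = 0.013) turned to −0.25 with library totals and missed the threshold without irradiated replicate 2 (0.20, adjusted p = 0.082). Grin2d (ENSMUSG00000002771.12, chromosome 7, 45831883 to 45878378) had 7.85, 7.35 and 8.76 CPM against 9.96, 12.7 and 11.5 CPM, a log2 change of 0.50 ± 0.15 (adjusted p = 0.01) that was −0.04 with library totals.

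Grin3b (ENSMUSG00000035745.9, chromosome 10, 79970715 to 79977190), a glycine-binding subunit, was the least abundant of the called NMDA subunits. It had 1.45, 1.45 and 1.49 CPM in nonirradiated and 2.56, 4.24 and 2.59 CPM in irradiated cultures, without overlap. The log2 change was 1.03 ± 0.30 (adjusted p = 0.0071), and 0.49 (adjusted p = 0.23) with library totals. Exons of Grin3b share 32.1% of their bases with Tmem259 on the opposite strand, whose own log2 change was 0.77 (adjusted p = 3.3e-06). Grin1 shares 13.5% of its exon bases with the antisense gene Grin1os, at 0.43 (adjusted p = 0.0018), and Grin2d 9.66% with the antisense gene Gm45441, at 0.59 (adjusted p = 0.015). The counting commands name no option for strand, so reads in the shared bases cannot be told apart. Grin3a, at 0.02 ± 0.12, and Grin2c, at 0.45 ± 0.24, were not called.

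Among the Grin2 subunits alone, Grin2b made up 77.4%, 76.2% and 76.6% of the RPKM in nonirradiated and 64.5%, 63.7% and 63.2% in irradiated cultures. Grin2a took 17.4%, 17.6% and 17.4% before and 20.7%, 19.7% and 20.6% after irradiation, and Grin2d 3.67%, 4.16% and 4.12% before and 9.31%, 12.4% and 11.6% after. None of these 3 subunits overlapped between the groups. Grin2b thus took a smaller share of the Grin2 RPKM in irradiated cultures although Grin2a fell as well.

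Of the 7 metabotropic glutamate receptors tested, 3 fell. Grm5 (ENSMUSG00000049583.15, chromosome 7, 87584168 to 88134907) had 313, 294 and 321 CPM in nonirradiated and 163, 140 and 165 CPM in irradiated cultures, a 1.98-fold decrease (log2 −0.98 ± 0.09, adjusted p = 9.4e-09). The presynaptic receptor Grm7 fell by 0.37 on the log2 scale. The group II receptors Grm2 and Grm3 and the group III receptors Grm4 and Grm8 were not called, with log2 changes of 0.12 ± 0.18, 0.13 ± 0.11, −0.33 ± 0.18 and 0.02 ± 0.30. Grm2, which shares 9.60% of its exon bases with an antisense gene of at most 2 counts per sample, passed the threshold at 0.41 (adjusted p = 0.025) without nonirradiated replicate 2 and turned to −0.44 with library totals. Grm4 passed at −0.57 (adjusted p = 0.013) without irradiated replicate 2. Grm5 took 45.9%, 45.6% and 46.3% of the metabotropic receptor RPKM before irradiation and 33.0%, 30.5% and 35.3% after it, and Grm3 15.8%, 14.7% and 16.2% before and 26%, 23.6% and 23.0% after.

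GABA-A receptor subunits showed decreases only, among those called. Gabrg3 (ENSMUSG00000055026.13, chromosome 7, 56716465 to 57387188), a minor gamma subunit, had 17.3, 14.8 and 16.4 CPM in nonirradiated and 6.40, 8.07 and 6.59 CPM in irradiated cultures, a 2.34-fold decrease (log2 −1.23 ± 0.15, adjusted p = 8.8e-07). Gabrb1 (ENSMUSG00000029212.11, chromosome 5, 71658113 to 72149037) had 173, 152 and 176 CPM against 85.7, 74.0 and 86.6 CPM (log2 −1.02 ± 0.09, adjusted p = 1e-08). No irradiated sample of either gene reached a control. Gabrb2, another beta subunit, had a log2 change of −0.78 ± 0.11. Gabrg1 fell by 0.46 on the log2 scale, a call that was lost without either of nonirradiated replicates 1 (adjusted p = 0.1) and 3 (0.067) or irradiated replicates 1 (0.051) and 2 (0.064).

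The alpha subunits differed among themselves. Gabra2, which is common on axon initial segments, fell by 0.80 on the log2 scale (SE 0.11, adjusted p = 7e-06). Gabra3 at −0.09 ± 0.10 and Gabra4 at −0.25 ± 0.11 were not called, although Gabra4 passed without irradiated replicate 1 (−0.35, adjusted p = 0.019). Gabra5 (ENSMUSG00000055078.7, chromosome 7, 57407672 to 57510059) was the most abundant of the class by RPKM, though Gabra2 was above it in CPM. It had 110, 104 and 115 CPM in nonirradiated and 112, 116 and 121 CPM in irradiated cultures. The log2 change of Gabra5 was 0.08 ± 0.08 (adjusted p = 0.39) and became −0.46 (adjusted p = 0.0068) with library totals. Of the alpha subunit RPKM, Gabra5 accounted for 46.2%, 48.5% and 46.6% before and 54.7%, 61.3% and 58.5% after irradiation, and Gabra2 for 33.0%, 30.4% and 33.8% before and 23.9%, 17.9% and 22.8% after. Gabra6, a cerebellar subunit, had 1 count in the irradiated cultures, as did Grm6, a receptor of the retina.

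**Figure D3:**
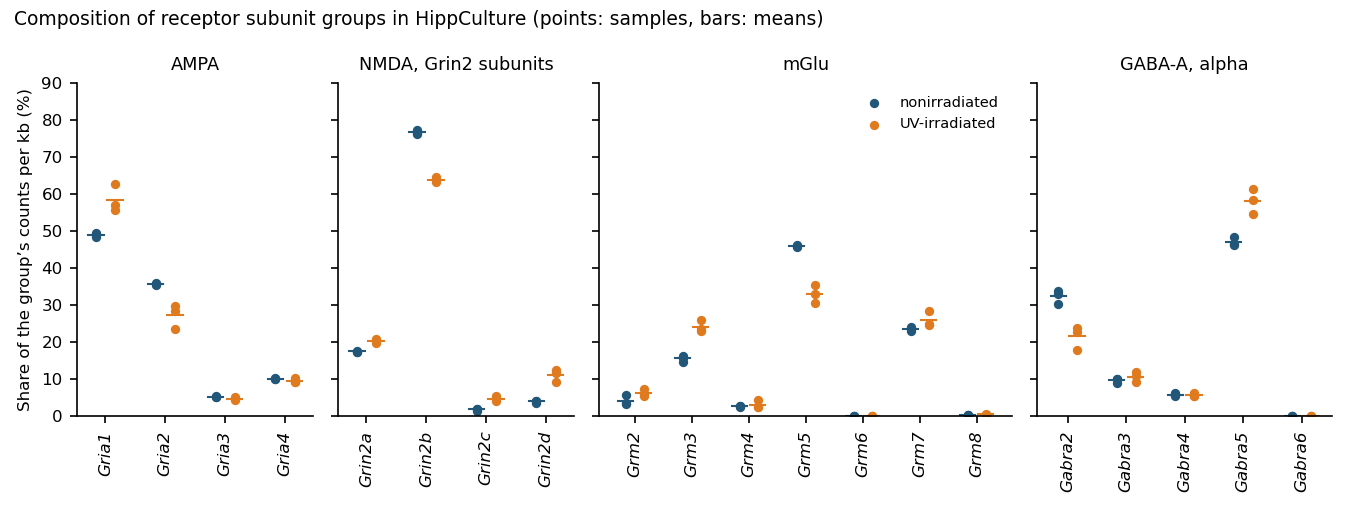
Share of subunits in the counts per kilobase of their group (%), in 3 nonirradiated (blue) and 3 UV-irradiated (orange) HippCulture samples, points for samples and bars for means. Gria2, Grin2b, Grm5 and Gabra2 have smaller and Gria1, Grin2d, Grm3 and Gabra5 larger shares in all irradiated samples.

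Both GABA-B subunits fell in HippCulture. Gabbr1 (ENSMUSG00000024462.17, chromosome 17, 37045966 to 37075067) had 382, 413 and 401 CPM in nonirradiated and 274, 295 and 279 CPM in irradiated cultures, a log2 change of −0.50 ± 0.08 (adjusted p = 2.6e-05). Gabbr2 (ENSMUSG00000039809.10, chromosome 4, 46662305 to 46991873), the subunit that couples the receptor to G proteins, had 186, 185 and 205 CPM against 157, 147 and 158 CPM, a log2 change of −0.32 ± 0.08 (adjusted p = 0.0022). The groups of neither gene overlapped, but Gabbr2 missed the threshold without nonirradiated replicate 3 (−0.23, adjusted p = 0.056).

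Members with longer 3′ UTRs had more negative changes in HippCulture. All 10 tested members with a longest annotated 3′ UTR over 4000 bases fell (among them Gabra2, Gabrb1, Gabrg3, Gria2, Grik2, Grik3, Grin2a, Grin2b and Grm5), with a median log2 change of −0.84. Of the 26 with at most 4000 bases, 10 fell and 5 were higher relative to the bulk of genes (none with library totals), with a median of −0.21. Over all protein-coding genes tested, 71.3% of the 1196 genes above 4000 bases and 20.6% of the 12666 others fell. Of these genes 4.18% above and 33.3% at or below the limit were higher, with medians of −0.62 and 0.11. The length limit was chosen after the values had been seen. Grin2b, which has the longest 3′ UTR of the members (18865 bases), changed by −1.24, close to Gabrg3 at −1.23 with 7948 bases, and the order of the pair turned when nonirradiated replicate 3 (−1.16 and −1.18) or irradiated replicate 2 (−1.23 and −1.32) was left out. Grin3b, with the shortest at 86 bases, changed by 1.03, or 0.49 with library totals.

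In Neuro2a, 4 of the 5 tested members above 4000 bases fell, with a median log2 change of −1.45, and Grin2b, at −0.25, was not called. Of the 10 others 3 fell and 2 were higher relative to the bulk of genes (neither was called higher with library totals), with a median of −0.25. Over all protein-coding genes tested there, 70.3% of the 1024 genes above this length and 28.3% of the 11978 others fell. Of these genes 8.4% above and 35.3% at or below it were higher, with medians of −1.07 and 0.05.

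Spearman's ρ between the 3′ UTR length and the log2 change was −0.79 over the 36 members and −0.53 over 13862 protein-coding genes in HippCulture, and −0.60 over 15 members and −0.50 over 13002 protein-coding genes in Neuro2a, a description across genes that share libraries and are not independent replicates. In HippCulture the whole exon length gave −0.63 over the members and −0.52 over the protein-coding genes. ORF length gave 0.26 over the members and −0.34 over the protein-coding genes, and the percentage of U in the mRNA −0.70 and −0.49. Which of these properties goes with the change was not tested. Members did not all lie on the course of other genes, as Grik1 with 304 bases of 3′ UTR changed by −0.23 and Grik4 with 2694 bases by 0.31.

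**Figure D4:**
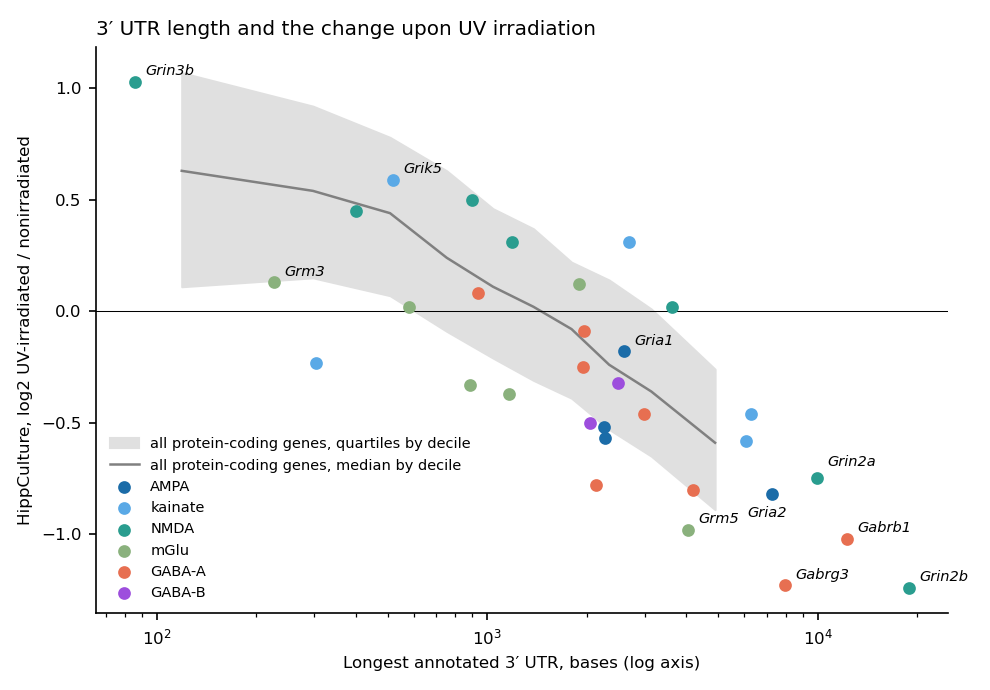
Log2 fold change upon UV irradiation in HippCulture against the longest annotated 3′ UTR (bases, log axis) of 32 of the 36 tested members, coloured by family, over the median (line) and quartiles (band) of protein-coding genes in 10 classes of 3′ UTR length. Members with long 3′ UTRs such as Grin2b, Gabrb1 and Gabrg3 lie lowest, and the median of all genes goes from 0.63 in the class with the shortest to −0.59 in the class with the longest 3′ UTRs.

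In Neuro2a only 15 members reached a mean of 0.5 CPM of the library total without irradiation and were tested. Of these, 7 fell upon UV irradiation, 2 were higher and 6 were not called, with a median log2 change of −0.66. Over all 17425 genes tested, 61.9% were called, 33.0% fell and 28.9% were higher. The irradiated samples were all below the controls for 8 members and all above them for 3, against 37.0% and 30.4% of all genes. Neither of the 2 higher members was called higher with library totals alone.

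Gria2 had 31.8, 37.3 and 28.9 CPM in nonirradiated and 8.76, 13 and 11.3 CPM in irradiated Neuro2a, without overlap (log2 −1.58 ± 0.16, adjusted p = 9.1e-07). Gabbr1 had 23.1, 28.9 and 28 CPM against 16, 17.3 and 17.5 CPM (log2 −0.66 ± 0.13, adjusted p = 0.00051). Both thus fell in either cell type. Grik3 had 32, 30 and 21 reads in nonirradiated and 3, 3 and 6 reads in irradiated samples (log2 −1.45 ± 0.40, adjusted p = 0.0064). Gabrb1 had 17, 14 and 12 reads against 3, 0 and 1 (log2 −2.05 ± 0.65, adjusted p = 0.015), and its call was lost without irradiated replicate 2 (−1.52, adjusted p = 0.058), while the change was −3.33 (adjusted p = 0.0048) without irradiated replicate 1.

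Grik4, also called higher in HippCulture, was not tested in Neuro2a. Of the 3 kainate subunits tested there, Grik5 alone had a positive change, relative to the bulk of genes. It had 212, 211 and 201 reads in nonirradiated and 145, 147 and 126 reads in irradiated Neuro2a, or 16.6 ± 1.28 CPM and 27.7 ± 2.26 CPM (SD, n = 3), a log2 change of 0.74 ± 0.12 (adjusted p = 9.9e-05) that turned to −0.46 (adjusted p = 0.0037) when library totals set the scale. Grin1 at 0.28 ± 0.29, Grin2b at −0.25 ± 0.72, Grin2d at −0.23 ± 0.40, Grin3b at 0.58 ± 0.31 and Grik1 at −0.27 ± 0.77 were not called, which at 6 to 77 reads over the irradiated samples leaves wide intervals. Grin1 passed at 0.66 (adjusted p = 0.04) without nonirradiated replicate 1, which held 78 of its reads against 39 and 41 in the others, and was at −0.91 (adjusted p = 0.009) with library totals.

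The difference in the UV effect between the cell types was tested for the 15 members that reached 0.5 CPM in both. Gria2, Grin3a and Gabbr2 passed, and 12 did not. Over all 14973 genes tested, 16.1% had a more negative change in Neuro2a and 8.41% a more positive one. Gria2 fell in both cell types and more so in Neuro2a, by a difference of −0.77 ± 0.21 on the log2 scale (adjusted p = 0.01).

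Grin3a (ENSMUSG00000039579.15, chromosome 4, 49661611 to 49845744), an NMDA subunit that lowers calcium permeability, had 9, 13 and 5 reads in nonirradiated and 0, 1 and 0 reads in irradiated Neuro2a. The ratio of its levels was 10.8 (95% exact counting interval 1.78 to 442), the fitted change −3.17 ± 0.97 (adjusted p = 0.012), or −5.80 (adjusted p = 0.012) without irradiated replicate 2, which held the only read. In HippCulture it had 21.7, 17.6 and 18.4 CPM against 20.9, 20.6 and 17.4 CPM. The difference between the cell types was −3.21 ± 0.91 (adjusted p = 0.014), and it missed the threshold without irradiated Neuro2a replicate 1 (−2.67, adjusted p = 0.052) or 3 (−2.74, adjusted p = 0.056), and was −5.77 (adjusted p = 0.014) without replicate 2. Gria1 had 3, 7 and 6 reads against 1, 0 and 0 in Neuro2a, a ratio of 6.4 (0.995 to 268). Neither its fitted change of −2.45 (adjusted p = 0.06) nor the difference of −2.27 ± 0.90 (adjusted p = 0.093) was called. Both passed without irradiated Neuro2a replicate 1 (change −5.06, adjusted p = 0.031, and difference −4.83, adjusted p = 0.043), and the change also without nonirradiated replicate 1 (−2.72, adjusted p = 0.044).

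Gabbr2 went in opposite directions relative to the bulk of the genes. In Neuro2a it had 8, 4 and 4 reads in nonirradiated and 6, 7 and 9 reads in irradiated samples, or 0.623, 0.292 and 0.357 CPM against 1.12, 1.44 and 1.85 CPM. The log2 change of 1.75 ± 0.48 (adjusted p = 0.0059) was 0.57 (adjusted p = 0.27) with library totals. The difference from HippCulture was 2.06 ± 0.40 (adjusted p = 0.0011), and with library totals 1.47 (adjusted p = 0.011). For the other 12 members the difference was not called, among them Grik5 at 0.14 ± 0.16 and Gabbr1 at −0.17 ± 0.15, for which the changes in the 2 cell types lay close, and Gabrb1 at −1.03 ± 0.62 and Grin2b at 0.98 ± 0.70, for which the error is wide.

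**Figure D5:**
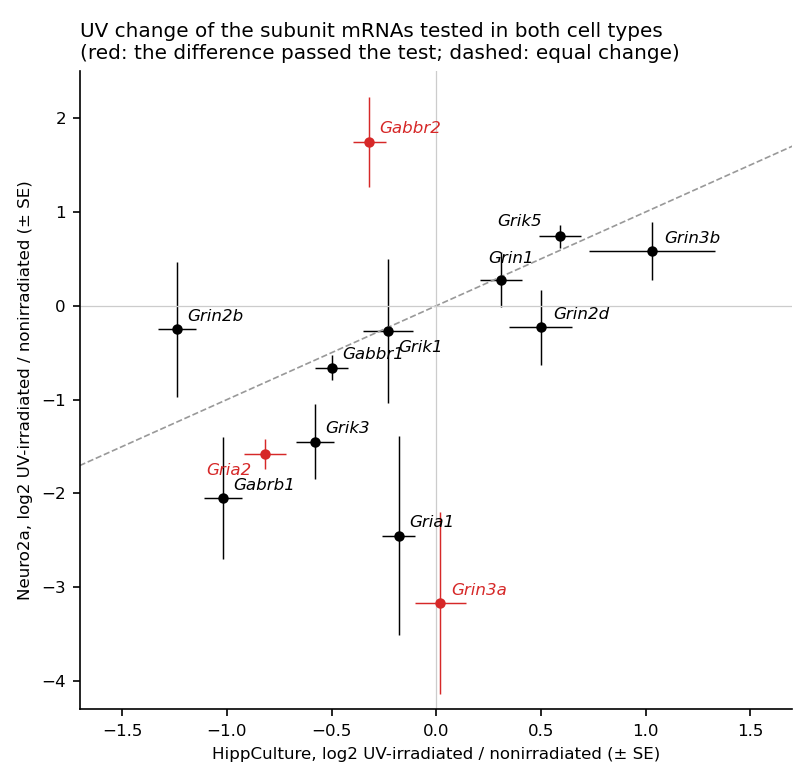
Log2 fold change upon UV irradiation (± SE) of 13 of the 15 receptor subunit mRNAs tested in both cell types, HippCulture on the horizontal and Neuro2a on the vertical axis, with the line of equal change dashed. Gria2 and Grin3a (red) lie below the line and Gabbr2 (red) above it, and Grik5 is higher relative to the bulk of genes on both axes, though not with library totals, where it was −0.46 in Neuro2a and 0.03 in HippCulture.

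Other genes of these synapses were examined as 6 lists of 69 genes in all, of which 64 were tested in HippCulture. There 27 of them fell (42.2%) and 12 were higher (18.8%), with a median log2 change of −0.23, against 25.9% and 26.1% of all genes and a median of −0.04. Of 8 tested subunits of the same superfamilies, such as glycine and delta-type GABA-A subunits, 3 fell (Gabrq −1.19) and 1 was higher (Gabrd 0.73). Of 14 auxiliary subunits of glutamate receptors, 3 fell (Neto2 −0.86) and 4 were higher (Cnih2 1.04), and of 6 auxiliary subunits of GABA receptors 4 fell (Kctd8 −1.23). Of 18 excitatory postsynaptic scaffold genes, 6 fell (Homer1 −0.97) and 4 were higher (Homer3 0.74). Of 5 inhibitory scaffold genes, 3 fell and 1 was higher (Gabarap 0.73), and of 14 genes for transmitter synthesis and transport 8 fell and 2 were higher (Slc17a7 0.54). These increases, too, are relative to the bulk of the genes, as with library totals only 1 of the 64 genes (Cnih2 0.49, adjusted p = 0.0046) was called higher and Slc17a7 turned to −0.03.

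In Neuro2a, 35 of the 69 genes were tested, 10 fell (28.6%, against 33.0% of all genes) and 7 were higher (20%, against 28.9% of all genes), of which none was called higher with library totals, where Gabrd turned to −0.11 and Gls2 to −0.33. By list, in the same order, 0 of 1 tested superfamily subunits fell and 1 was higher (Gabrd 1.07), and none of 6 auxiliary subunits of glutamate receptors was called by edgeR, with 1 at an unadjusted p under 0.05. Of 4 auxiliary subunits of GABA receptors 2 fell (Kctd12 −1.98), of 17 excitatory scaffold genes 5 fell (Homer1 −1.77) and 4 were higher (Homer3 1.37), of 4 inhibitory scaffold genes 1 fell (Nlgn2 −0.85) and 1 was higher (Gabarap 1.23), and of 4 transmitter genes 2 fell and 1 was higher (Gls2 0.87). The difference between the cell types was called for 11 of 35 genes, 8 of them (22.9%) more negative and 3 (8.57%) more positive in Neuro2a, against 24.5% called, 16.1% more negative and 8.41% more positive over all genes. These were 4 excitatory scaffold genes (Grip1 −0.88), 2 transmitter genes, 1 inhibitory scaffold gene (Nlgn2 −0.64) and 1 auxiliary subunit of GABA receptors (Lhfpl4 −0.51), and the more positive ones were 2 excitatory scaffold genes (Homer3 0.63) and 1 inhibitory scaffold gene (Gabarap 0.49).

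Without irradiation, 59 of the 64 tested genes of the lists were higher in HippCulture and 3 were lower, against 41.4% and 39.0% of all genes. Of the 64, 29 passed the filter only through HippCulture, so the counts over the 64 and by list are a description. Of the 35 that passed in both cell types 30 were higher and 2 lower, with a median log2 difference of 2.69. Among all 14973 genes that passed in both, 38.7% were higher and 37.9% lower, with a median of 0.0. All 8 superfamily subunits (Glrb 12.72 on the log2 scale), 13 of 14 auxiliary subunits of glutamate receptors (Neto1 9.90), all 6 of GABA receptors (Kctd8 7.67), 15 of 18 excitatory scaffold genes (Dlgap1 7.89), all 5 inhibitory scaffold genes and 13 of 14 transmitter genes (Slc32a1 11.11) were higher. The lower ones were Cacng3 (−0.62), Dlg1 (−0.36) and Gls2 (−2.92). Fitted values of genes at or near 0 in Neuro2a depend on the prior count of the fit and are no bounds.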

How the data were processed

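RNA of UV-irradiated and nonirradiated Neuro2a and HippCulture, 3 samples per group, was analysed. The deposited values are raw read counts per gene. The authors removed ribosomal RNA, mapped reads to mm10 with TopHat2 (2.1.1 in the submitters' processing notes) and counted them on GENCODE exons with featureCounts 1.6.1, giving a read to every gene it overlapped. The labels name a stranded and the study's methods an unstranded library kit, and no strand option was used. The 12 human samples were not used here.

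Counts were fitted over all genes with edgeR 4.0.16 in R 4.3.3 (quasi-likelihood test, TMM, Benjamini-Hochberg adjustment, threshold 0.05). Genes needed a mean of 0.5 CPM of the library total in the nonirradiated samples, in either cell type for the baseline and in both for the difference between cell types, which is the interaction term over 12 samples. The standard error is the log2 fold change divided by the square root of F. Python 3.11.15 with pandas 2.3.3 and scipy 1.17.1 made the tables and matplotlib 3.10.9 the figures. The fits were tested on simulated data in which few genes changed, as many up as down, so the scaling between libraries was not tested. Gene names matched GENCODE M21 for 99.82% of 53715 genes. The 3′ UTR is the longest annotated one of a complete protein-coding transcript, and sequences are from GRCm38, the same build as mm10.

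The members and lists were chosen with earlier results of these data known. Values by sample are given for the called members with the largest change (up to 6 per direction in each of 4 tests), the 6 with the highest RPKM in HippCulture and the 3 highest in Neuro2a. Alternatives were DESeq2 1.42.0 and its size factors, library totals, other filters, a replicate block, omission of the 10 genes with the most counts, and each sample left out. Replicates of a group differed by more than sampling noise, so none was counted as a duplicate. Values of some members and list genes are not reported here. No explanation was tested.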

Additional observations from a re-analysis of the deposited data

Results flagged for a closer look

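For 3 of the 15 members tested, the effect of UV irradiation differed between the cell types by the interaction term of edgeR (Neuro2a minus HippCulture, Benjamini-Hochberg adjustment over all genes). Among all 14973 genes tested, 24.5% were called for this difference. For Gabbr2 the difference was 2.06 on the log2 scale, and it was called under all 18 alternatives (1.47 to 2.44, adjusted p 0.00018 to 0.011). In normalized CPM all 3 irradiated samples were higher than the controls in Neuro2a and lower in HippCulture, on 16 and 22 reads in Neuro2a. For Gria2 the difference was −0.77 and was called under all 18 alternatives (−1.39 to −0.62, adjusted p 2.3e-05 to 0.036). For Grin3a it was −3.21 and was called under 16 of 18 alternatives (−5.77 to −2.67, adjusted p 0.00073 to 0.056), on 27 and 1 reads in Neuro2a.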

How the results depend on the processing

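Scaling decided the increases. With library totals alone, 11 members were lower and 0 higher in Neuro2a, against 73.8% and 6.06% of all genes tested. In HippCulture 29 were lower and 0 higher, against 49.5% and 7.13% of all genes. Of 15 members, 11 differed between the cell types, 10 of them more negative in Neuro2a. Over all genes, 47.7% were more negative and 0.441% more positive there. The log2 change then turned to −0.46 for Grik5 and −0.91 for Grin1 in Neuro2a, and to −0.46 for Gabra5, −0.24 for Grik4, −0.25 for Grin1, −0.04 for Grin2d, −0.53 for Grin3a, −0.44 for Grm2 and −0.41 for Grm3 in HippCulture. Requiring 0.5 CPM in each cell type left 15 members for the baseline, of which 14 differed, 13 of them higher in HippCulture, because fewer were tested. Under that filter 38.7% of all genes were higher and 37.9% lower in HippCulture. Apart from that filter, DESeq2, its size factors and the filters on counts kept the numbers of calls within 1.5 times in all 4 tests. So did omission of the 10 genes with the most counts, for the UV effects. Single calls changed there for Gria1 and Gabra4, which were then called lower, and Grik4, which was lost, all in HippCulture.

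Leaving out each sample in turn gave 8 to 11 called members in Neuro2a (6 to 8 lower, 2 to 3 higher), 23 to 26 in HippCulture (18 to 21 lower, 4 to 6 higher), 35 in the baseline throughout (1 lower, 34 higher) and 2 to 3 for the difference (1 to 2 more negative, 1 more positive). The lower count for the difference came without irradiated Neuro2a replicate 3. Over all genes, these fits gave 30.4% to 32.5% lower and 26.7% to 28.5% higher in Neuro2a. In HippCulture they gave 20.9% to 24.8% and 22.6% to 27.6%, and in the baseline 35.9% to 38.0% and 40.0% to 41.7%. For the difference, 12.4% to 16.6% were more negative and 6.04% to 9.75% more positive. With the replicate number as a block, 9 members were called in Neuro2a, 27 in HippCulture, 35 in the baseline and 4 for the difference. Over all genes the block gave 34.6% lower and 30.7% higher in Neuro2a, and 26.9% and 27.3% in HippCulture. In the baseline it gave 38.5% and 41.0%, and for the difference 20.3% more negative and 12.4% more positive. Gria1 (−0.18, adjusted p = 0.022) and Gabra4 (−0.25, adjusted p = 0.041) were added in HippCulture. Deviations of same-numbered samples correlated at 0.0829 to 0.228 in Neuro2a, 0.0476 to 0.126 in HippCulture and −0.016 to 0.0214 across cell types, so the numbers do not establish a pairing, although every sample correlated best with its own number in both UV comparisons. In Neuro2a, at totals like those of HippCulture, 23 members had at most 10 reads over the nonirradiated samples, which limits what can be detected for them.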
